A study of Mus musculus with 18 samples.

Results

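Mertk, Axl, Gas6, Pros1, Mfge8, Itgb5, Lrp1 and Cd300lf encode receptors for apoptotic cells and the secreted bridging proteins that join those receptors to the dying cell. They were taken by name as a list of 8 genes, and all 8 were found among the 22598 genes measured in cultured mouse macrophages. The list was not chosen by a threshold on measured values, but earlier results of these data were known when it was drawn up. RNA sequencing was done on wild-type bone-marrow-derived macrophages, which are primary macrophages grown in culture from bone marrow. The 18 libraries formed 6 groups of 3, all labelled with a treatment time of 18 h: an unstimulated control, interferon-gamma (IFNg) alone, and IFNg together with tumour necrosis factor (labelled TNFa, here TNF), with IL1b (interleukin-1 beta), with hypoxia, or with LPS (lipopolysaccharide, from the bacterial outer membrane). TNF, IL1b, LPS and hypoxia were each given only with IFNg, so their effect cannot be told apart from the effect of the combination. The labels give no strain, age, cytokine dose or oxygen level, and do not tie replicates to separate animals or cultures. The p-values therefore measure only the spread between these samples, and that spread may be technical.

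Macrophages recognise apoptotic cells mainly by phosphatidylserine, a lipid that dying cells expose on their outer surface, and engulf them in a process called efferocytosis. Some receptors bind this lipid directly, while others need a soluble bridge. Mertk and Axl are receptor tyrosine kinases of the TAM family (Tyro3, Axl, Mertk). Their ligands Gas6 and protein S (Pros1) carry a vitamin K-dependent domain that binds phosphatidylserine. Gas6 is a ligand of both receptors, and protein S of Mertk but not Axl. Mfge8 binds the lipid with one end and the alpha-v integrins with the other, and Itgb5 is the beta subunit of the alpha-v beta-5 integrin. Lrp1 is a large endocytic receptor that takes up many ligands and recognises calreticulin on dying cells. Cd300lf is a CD300 family receptor with an inhibitory cytoplasmic tail that binds lipids including phosphatidylserine.

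Promoter sequences are shown for Mertk, Gas6, Pros1 and Itgb5, the members with the largest differences when TNF or LPS was added to IFNg. Each is the 250 bases before the RefSeq gene start in GRCm38.p6, 5′ to 3′ on the gene's strand, and all 8 members matched a RefSeq entry. Capitals mark matches, on either strand, to 4 motifs: the interferon-gamma activated (GAS) motif TTCNNNGAA, the ISRE motif of interferon regulatory factors (GAAA, any 2 bases, GAAA), the NF-kappaB class motif (GGGA, any 4 bases, CC), and the hypoxia response core ACGTG or GCGTG. The windows are chr2:128698665-128698914 (plus strand) for Mertk, chr8:13494536-13494785 (minus strand) for Gas6, chr16:62854057-62854306 (plus strand) for Pros1 and chr16:33829415-33829664 (plus strand) for Itgb5.
Mertk: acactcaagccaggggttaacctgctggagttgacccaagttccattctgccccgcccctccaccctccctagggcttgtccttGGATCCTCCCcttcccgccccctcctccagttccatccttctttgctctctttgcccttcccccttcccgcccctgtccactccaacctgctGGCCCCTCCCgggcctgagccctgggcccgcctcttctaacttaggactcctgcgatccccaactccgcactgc
Gas6: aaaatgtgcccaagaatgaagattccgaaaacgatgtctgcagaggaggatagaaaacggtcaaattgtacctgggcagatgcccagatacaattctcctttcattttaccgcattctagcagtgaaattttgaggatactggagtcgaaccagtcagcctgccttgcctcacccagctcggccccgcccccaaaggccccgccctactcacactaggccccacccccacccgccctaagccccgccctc
Pros1: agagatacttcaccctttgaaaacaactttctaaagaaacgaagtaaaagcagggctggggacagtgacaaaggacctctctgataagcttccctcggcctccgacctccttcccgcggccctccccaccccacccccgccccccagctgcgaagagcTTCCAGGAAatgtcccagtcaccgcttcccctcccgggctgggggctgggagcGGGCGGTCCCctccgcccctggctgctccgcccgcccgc
Itgb5: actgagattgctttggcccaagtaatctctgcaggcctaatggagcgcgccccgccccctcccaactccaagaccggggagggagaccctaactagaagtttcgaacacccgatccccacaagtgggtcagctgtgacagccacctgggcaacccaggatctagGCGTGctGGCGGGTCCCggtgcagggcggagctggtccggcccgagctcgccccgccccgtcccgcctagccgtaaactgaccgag
The Mertk window held 2 NF-kappaB class matches, and the Gas6 window held a match to none of the 4 motifs. The Pros1 window held a GAS match, TTCCAGGAA, 92 to 84 bases before the start, and an NF-kappaB class match that overlaps an Sp1 class GC box (GGGCGG). The Itgb5 window held a hypoxia core and an NF-kappaB class match. Among the 8 members, 4 had an NF-kappaB class match (Mertk, Axl, Pros1 and Itgb5), against 17.6% of 32851 RefSeq promoter windows of the same length. A GAS match was present in Pros1 and Lrp1 (7.02% of all windows), a hypoxia core in Mfge8 and Itgb5 (38.6%), and an ISRE match in none of the 8 (2.98%). GC boxes were present in 7 of 8 windows, all but Cd300lf (32.7% of all windows), and the PU.1 class motif GAGGAA in Axl, Mfge8 and Cd300lf (23.3%). The AP-1 class motif TGANTCA was present in none of the 8, against 6.75% of all windows. The share of G and C was 60 to 65.2% in the 4 windows with an NF-kappaB class match and 50 to 67.2% over the 8 windows. The median of all windows was 52.4%, and the part of base content in these match shares was not tested. A match is a description of the letters, not a binding site.

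Each library held 12270565 to 20952799 counts, and replicates differed by more than sampling noise (chi-square per degree of freedom 12.2 to 52.8 between replicates). Levels are given in CPM, a gene's counts scaled to the library's counts in tested genes after TMM, and 3 counts in a library correspond to 0.151 to 0.255 CPM. The 12 macrophage markers were all tested and summed to 15691 to 28675 CPM per library, with Adgre1 and Csf1r among them. The T cell genes Cd3e, Cd3d and Cd3g, the B cell genes Ms4a1 and Pax5, the NK cell genes Ncr1, Klrb1c, Eomes and Gzma, the endothelial genes Tie1, Emcn and Cldn5, and the erythroid genes Hba-a1 and Hbb-bs had 0 counts in every library. Other genes of these lists were present. With IFNg, Il7r (T cell) was at 51.3 ± 9.18 CPM, Ighm (B cell) at 534 ± 36.2, Klrk1 (NK cell) at 85.1 ± 9.59 and Vwf (endothelial) at 29.9 ± 5.31. Over each whole list the summed level in any library was 41.1 to 282 CPM for 5 T cell genes, 7.28 to 749.7 for 6 B cell genes, 0 to 95.6 for 5 NK cell genes, 38.6 to 255 for 7 endothelial genes and 0 to 0.406 for 5 erythroid genes. It was 0.672 to 5.05 CPM for 6 mast cell and basophil genes (Ms4a2 and Tpsb2 at 0), 5.32 to 147 for 7 dendritic cell genes, 2.25 to 14.8 for 8 fibroblast genes (Lum at 0) and 17.8 to 71.4 for 5 megakaryocyte genes (Gp1bb at 0). The 10 neutrophil and granulocyte precursor genes summed to 110 to 164 CPM in the control, 107 to 129.5 with IFNg, 13 to 18.1 with TNF, 31.8 to 44.4 with LPS, 85.9 to 101 with IL1b and 67.6 to 92.2 with hypoxia. In bulk RNA, fewer cells of a type and less RNA per cell cannot be told apart.

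Several of these lists moved with the treatments and with the members described below, and their part in those results was not tested. With IFNg, where Gas6, Mfge8 and Itgb5 fell, the macrophage sum was 16000.3 to 17961 CPM, against 22678 to 28675 in the control. The endothelial sum, mostly Vwf, was 38.6 to 61.9 CPM with IFNg and 181 to 255 in the control, and the T cell sum, nearly all Il7r, 41.1 to 59.0 and 119.7 to 135. With TNF and with LPS, where Mertk rose, the T cell sum was 180.3 to 282 and 117 to 210.0 CPM, and the endothelial sum (Vwf and Kdr) 145 to 187 and 100.3 to 117, all above IFNg alone. The macrophage sum was 19672 to 21020 CPM with TNF, and Cd14 in it went from 148 ± 4.89 with IFNg to 5321 ± 481. Of the 12 macrophage genes, 2 passed the test given below as higher with TNF and 7 as lower, against 22.1% and 22.6% of all genes. The neutrophil sum and the B cell sum, nearly all Ighm, were lower with TNF, LPS and hypoxia, as were Gas6 and Pros1. With hypoxia none of the 9 tested neutrophil genes passed the test given below, where 13.5% of all genes were called higher and 11.8% lower. The other tested B cell gene, Cd79b, was higher with hypoxia, at 14.3 ± 2.09 CPM against 5.52 ± 1.24 with IFNg. The B cell sum was 505 to 579 CPM with IFNg, 7.28 to 12.6 with TNF, 63.3 to 109.6 with LPS and 249.6 to 283 with hypoxia. With hypoxia, where Gas6, Pros1 and Axl fell and Mfge8 rose, the mitochondrial share of counts was 0.0726 to 0.0907%, against 0.389 to 0.596% with IFNg, and the T cell and endothelial sums were 85.1 to 106 and 62.7 to 73.7 CPM. Within the endothelial list, Vwf went from 29.9 ± 5.31 CPM with IFNg to 59.6 ± 7.04 with hypoxia, while Kdr fell from 19.2 ± 7.17 to 7.27 ± 0.376.

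All 8 members were expressed at levels that passed the filter on low counts. IFNg alone was followed by higher Cd300lf, Axl and Mertk and lower Gas6, Mfge8, Itgb5 and Lrp1. TNF on top of IFNg raised Mertk 5.63-fold and lowered Pros1 and Itgb5 each 8.8-fold, Gas6 6.76-fold and Axl 1.67-fold. LPS changed these 5 genes in the same directions, and the difference between LPS and TNF passed the test for 4 of them, all but Axl. Hypoxia lowered Gas6, Pros1 and Axl and raised Mfge8. Cd300lf was also higher with LPS and with hypoxia, but these calls, and that of Lrp1 with IFNg, are lost without single libraries, as given below. The edgeR quasi-likelihood test with Benjamini-Hochberg adjustment over 11563 genes, at a threshold of 0.05, gave the calls.

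**Figure D1:**
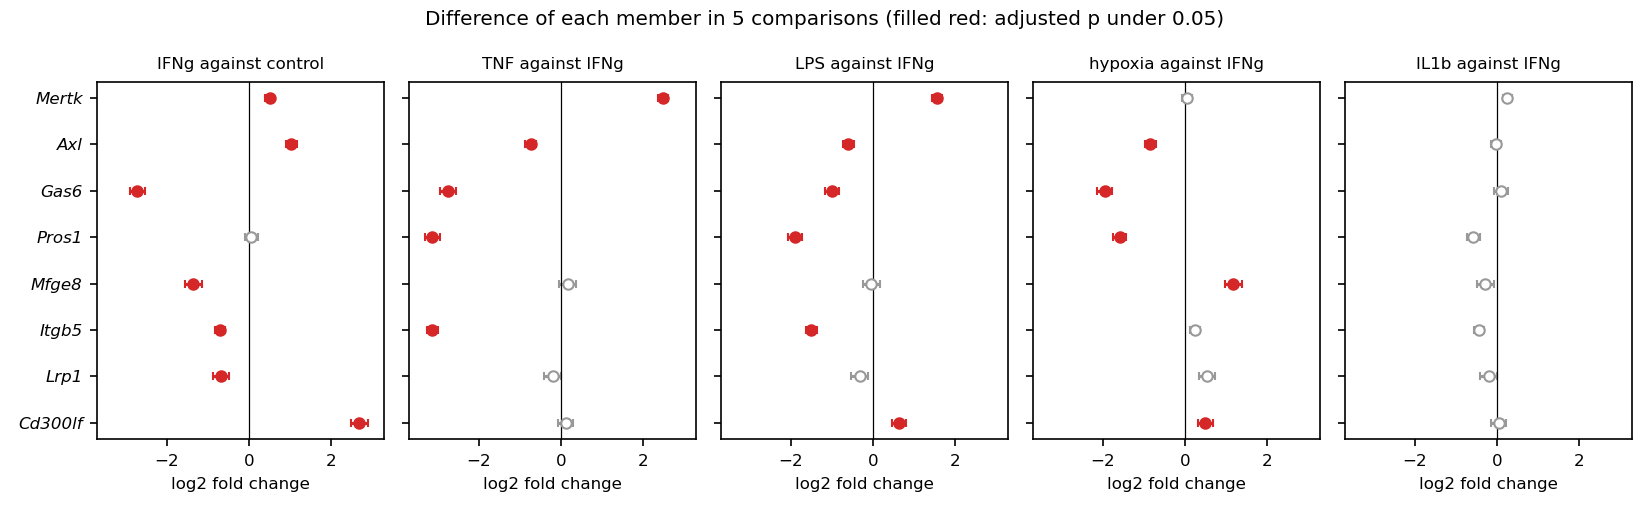
Log2 fold change (x axis) of each of the 8 genes (y axis) in 5 comparisons, with bars of 1 SE from the fit of 18 libraries; filled red points passed an adjusted p of 0.05 and open grey points did not. The TNF panel has Mertk at 2.49 and Pros1 and Itgb5 at -3.14, while the IL1b panel has no filled point.

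With IFNg against control, 3 members were higher and 4 lower, where 13.5% of all genes tested were called higher and 10% lower. With TNF against IFNg, 1 member was higher and 4 lower, against 22.1% and 22.6% of all genes. LPS against IFNg had 2 members higher and 4 lower, against 10.2% and 10.1%. With hypoxia against IFNg, 2 members were higher and 3 lower, against 13.5% and 11.8%. LPS against TNF had 4 members higher and 1 lower, against 12.2% and 13.1%. In the comparisons given so far, the share of the 8 members exceeded that of all genes in most directions. The exceptions were the 1 member higher with TNF and the 1 lower with LPS against TNF. The members were chosen with earlier results of these data known and had 119 or more counts in each library. All genes tested include genes with fewer counts, so these shares do not compare like with like. The median log2 fold change of the 8 members was -0.306 with IFNg (-0.015 over all genes tested), -0.469 with TNF (-0.0486), -0.463 with LPS (-0.00357) and 0.148 with hypoxia (-0.0109). IL1b against IFNg called 0 members, where 0.268% of all genes were higher and 0.0346% lower. In that comparison 3 members (Mertk, Pros1 and Itgb5) had an unadjusted p under 0.05, DESeq2 called 1 (Itgb5), and a fit of those 2 groups alone called 2 (Pros1 and Itgb5).

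The scaling of the libraries bears on the small differences. When libraries were scaled to the totals that the deposited RPKM values imply instead of by TMM, the all-gene median shifted by -0.152 (log2) for IFNg, -0.32 for TNF, -0.245 for hypoxia and 0.244 for LPS against TNF. The share of calls that were higher went from 57.4% to 40.2% with IFNg, 49.5% to 29.7% with TNF, 50.4% to 40% with LPS, 53.3% to 25.7% with hypoxia and 48.1% to 74.8% with LPS against TNF. Among the members that changed 3 calls, given with Axl, Lrp1 and Cd300lf below.

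Mertk (ENSMUSG00000014361, mm10 chromosome 2, 128698956 to 128802894, plus strand, 19 coding parts) is the receptor best known for efferocytosis by macrophages. In the control its level was 58.0, 49.3 and 54.1 CPM in the 3 libraries, and with IFNg 78.4, 77.2 and 73.7 CPM. With TNF it was 465, 458 and 369 CPM and with LPS 239, 228 and 215 CPM. All TNF libraries lay above all LPS libraries, which in turn lay above every other library. Mertk was 102, 84.2 and 87.5 CPM with IL1b and 82.7, 77.1 and 78.3 CPM with hypoxia. The hypoxia and IFNg libraries overlapped. Mertk rose by 0.51 on the log2 scale (SE 0.11, adjusted p = 0.00131) with IFNg against control and rose by 2.49 on the log2 scale (SE 0.12, adjusted p = 1.98e-15) when TNF was added. LPS raised it by 1.57 (SE 0.12, adjusted p = 8e-11), and LPS lay below TNF with a log2 fold change of -0.92 (SE 0.11, adjusted p = 5e-07). These 4 calls held under all 13 alternative settings run for each. Against IFNg, the log2 fold change was 0.25 (SE 0.11, adjusted p = 0.926) with IL1b and 0.05 (SE 0.11, adjusted p = 0.794) with hypoxia, neither past the threshold.

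Axl (ENSMUSG00000002602, chromosome 7, 25757273 to 25788705, minus strand, 20 coding parts) is the TAM receptor known to be induced in inflamed myeloid cells. Its level was 291, 273 and 337 CPM in the control and 564, 593 and 687 CPM with IFNg, with no overlap. With IFNg and TNF it was 309, 443 and 355 CPM, with LPS 344, 415 and 456 CPM and with hypoxia 347, 366 and 317 CPM. These 9 libraries all lay below the 3 IFNg libraries, and the 3 treatments overlapped with each other. With IL1b the level was 554, 672 and 592 CPM, within the range of IFNg apart from the lowest library. Axl rose by 1.03 on the log2 scale (SE 0.13, adjusted p = 6.94e-07) with IFNg. It fell by 0.74 on the log2 scale (SE 0.13, adjusted p = 4.53e-05) when TNF was added, fell by 0.60 on the log2 scale (SE 0.13, adjusted p = 0.00123) with LPS, and fell by 0.84 on the log2 scale (SE 0.13, adjusted p = 2.31e-05) with hypoxia. Axl thus fell with TNF and with LPS, the additions in which Mertk rose. LPS against TNF gave a log2 fold change of 0.13 (SE 0.13, adjusted p = 0.516), which became 0.38 (adjusted p = 0.0264) with RPKM totals. Tyro3, the remaining TAM receptor, was not tested. Its mean level was 0 to 0.0456 CPM over the 6 groups, under the level of 3 counts in a library.

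The balance of the receptors was compared per coding length within each library, as a description with no test. The ratio of Axl to Mertk was 6.24 (range 5.62 to 6.97) in the control, 8.97 (range 8.04 to 10.4) with IFNg and 7.45 (range 6.1 to 8.93) with IL1b. It was 4.83 (range 4.53 to 5.3) with hypoxia, 1.98 (range 1.61 to 2.38) with LPS and 0.953 (range 0.745 to 1.08) with TNF. The receptors were thus near parity in the TNF libraries, and all LPS and TNF libraries lay below all others. For the ligands, the ratio of Gas6 to Pros1 was 4.71 (range 3.56 to 6.13) in the control. It was 0.674 (range 0.526 to 0.863) with IFNg, 0.876 (range 0.662 to 1.24) with TNF, 0.52 (range 0.421 to 0.611) with hypoxia, 1.09 (range 1.01 to 1.17) with IL1b and 1.27 (range 1.01 to 1.63) with LPS. Every library given IFNg lay below the 3 control libraries in this ratio. Pros1 exceeded Gas6 in all IFNg and all hypoxia libraries.

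**Figure D2:**
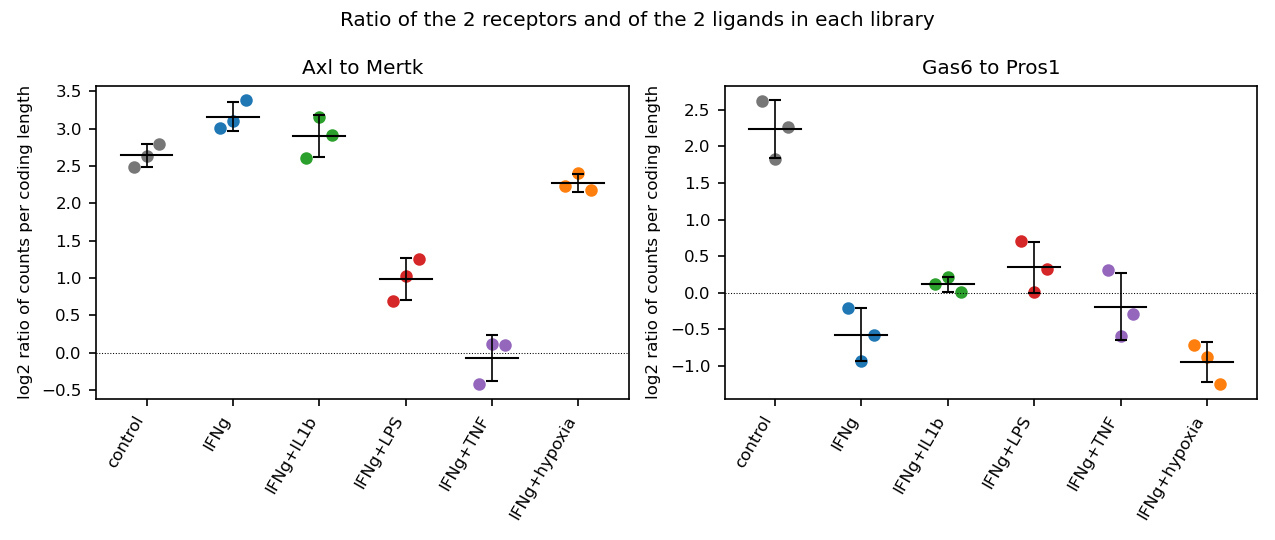
Log2 ratio of counts per coding length (y axis) of Axl to Mertk (left) and of Gas6 to Pros1 (right) in each library (points) by group (x axis), with the mean (line) and SD (bars) of 3 libraries; the dotted line at 0 is an equal level. The TNF libraries of the receptor panel lie between -0.425 and 0.112 and the control libraries of the ligand panel between 1.83 and 2.62.

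Gas6 (ENSMUSG00000031451, chromosome 8, 13465374 to 13494490, minus strand, 15 coding parts), the ligand of all TAM receptors, had the widest span of the 8 genes, with a mean 44.6 times higher in the highest group than in the lowest. Its level was 515, 439.9 and 468 CPM in the control and 87.2, 63.0 and 65.4 CPM with IFNg. With TNF it was 11.9, 7.82 and 12.2 CPM. Every IFNg library lay below every control library, and every TNF library below every IFNg library. Gas6 was 43.7, 32.3 and 32.3 CPM with LPS, 23.5, 17.1 and 14.9 CPM with hypoxia and 84.3, 78.6 and 69.6 CPM with IL1b. The groups fell in the order control, IL1b and IFNg (which overlapped), LPS, hypoxia and TNF. Gas6 fell by 2.72 on the log2 scale (SE 0.18, adjusted p = 2.85e-12) with IFNg. When TNF was added it fell by 2.76 on the log2 scale (SE 0.19, adjusted p = 4.18e-12). With LPS it fell by 0.99 on the log2 scale (SE 0.17, adjusted p = 9.76e-05) and with hypoxia it fell by 1.95 on the log2 scale (SE 0.18, adjusted p = 6.91e-09). LPS lay above TNF by a log2 fold change of 1.76 (SE 0.19, adjusted p = 5.54e-08). These 5 calls held under all 13 alternatives, and IL1b gave 0.11 (SE 0.17, adjusted p = 1). The gene Tmem255b overlaps 34 coding bases of Gas6 on the opposite strand and had 0 counts in every library.

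Pros1 (ENSMUSG00000022912, chromosome 16, 62854307 to 62929346, plus strand, 15 coding parts) encodes protein S, which is also an anticoagulant of plasma. Its level was 84.2, 124 and 98.1 CPM in the control and 101, 120.0 and 97.4 CPM with IFNg, in overlapping ranges. With TNF it was 9.67, 11.8 and 14.8 CPM and with LPS 26.8, 32.1 and 25.8 CPM. The TNF libraries were the lowest of all 18. Pros1 was 38.6, 31.4 and 35.4 CPM with hypoxia, overlapping LPS, and 77.8, 67.5 and 69.1 CPM with IL1b, below all IFNg libraries. The log2 fold change of IFNg against control was 0.06 (SE 0.16, adjusted p = 0.857), so that Pros1 did not pass the test in the comparison in which Gas6 fell. With TNF, Pros1 fell by 3.14 on the log2 scale (SE 0.18, adjusted p = 9.13e-14). With LPS it fell by 1.91 on the log2 scale (SE 0.17, adjusted p = 2.33e-09), and with hypoxia it fell by 1.59 on the log2 scale (SE 0.17, adjusted p = 5.17e-08). LPS lay above TNF by 1.23 (SE 0.17, adjusted p = 4.92e-06) on the log2 scale. IL1b gave -0.57 (SE 0.16, adjusted p = 0.232), and the fit of those 2 groups alone called it.

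**Figure D3:**
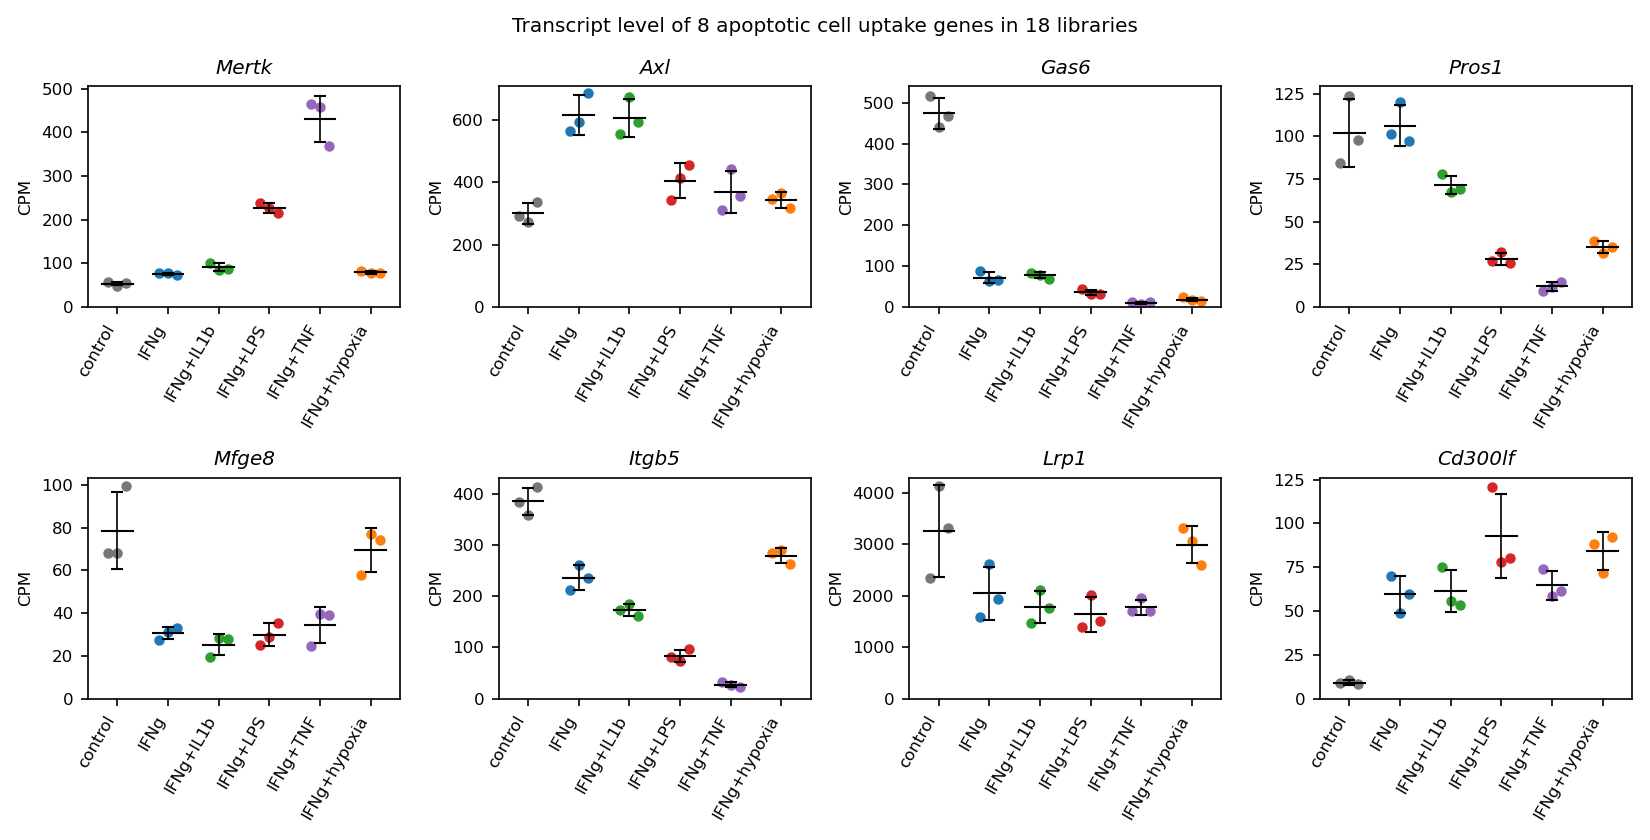
Level in CPM (y axis, from 0) of the 8 genes in the 18 libraries (points) by group (x axis), with the mean (line) and SD (bars) of 3 libraries. Mertk is highest in the TNF libraries (369 to 465 CPM) while Gas6, Pros1 and Itgb5 are lowest there, and Cd300lf is lowest in the control libraries (8.29 to 10.6 CPM).

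Mfge8 (ENSMUSG00000030605, chromosome 7, 79133768 to 79149060, minus strand, 10 coding parts), the bridge to alpha-v integrins, followed another pattern. Its level was 68.1, 68.2 and 99.5 CPM in the control and 27.6, 31.3 and 33.0 CPM with IFNg. With hypoxia on top of IFNg it was 57.9, 77 and 74.2 CPM. The hypoxia libraries overlapped the control and lay above all libraries of the other IFNg groups. With TNF the level was 24.5, 39.5 and 39.2 CPM, with LPS 24.9, 29.1 and 35.5 CPM and with IL1b 19.5, 28.3 and 28.1 CPM, all overlapping IFNg alone. Mfge8 fell by 1.36 on the log2 scale (SE 0.21, adjusted p = 9.15e-06) with IFNg and rose by 1.19 on the log2 scale (SE 0.21, adjusted p = 7.97e-05) with hypoxia. Both calls held under all 13 alternatives. The 5 megakaryocyte genes summed to 20.6 to 28.0 CPM in the control, 21.8 to 28.9 with IFNg and 50.1 to 71.4 with hypoxia. Nearly all of this was Pf4, at 25.5 ± 3.68 CPM with IFNg and 58.5 ± 10.9 with hypoxia. The part of these genes in the Mfge8 difference was not tested. TNF gave 0.16 (SE 0.21, adjusted p = 0.55), LPS -0.04 (SE 0.21, adjusted p = 0.937) and IL1b -0.28 (SE 0.21, adjusted p = 1), and none passed the test.

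Itgb5 (ENSMUSG00000022817, chromosome 16, 33829665 to 33949338, plus strand, 15 coding parts) was 384, 360.0 and 413 CPM in the control and 213, 262 and 235 CPM with IFNg. With TNF it was 31.8, 26.6 and 21.9 CPM and with LPS 80.7, 73.5 and 96.6 CPM. Neither of these groups overlapped with IFNg or with each other. With IL1b the level was 174, 186 and 162 CPM and with hypoxia 285, 291 and 264 CPM. No neighbouring groups overlapped in the order control, hypoxia, IFNg, IL1b, LPS and TNF. Itgb5 fell by 0.70 on the log2 scale (SE 0.13, adjusted p = 9.47e-05) with IFNg. The addition of TNF gave the smallest adjusted p of any member in any comparison: Itgb5 fell by 3.14 on the log2 scale (SE 0.14, adjusted p = 5.15e-16). With LPS it fell by 1.5 on the log2 scale (SE 0.13, adjusted p = 1.41e-09), and LPS lay above TNF by 1.64 (SE 0.13, adjusted p = 6.41e-10). Hypoxia gave 0.24 (SE 0.13, adjusted p = 0.176). IL1b gave -0.44 (SE 0.13, adjusted p = 0.232), with adjusted p = 0.0484 in DESeq2.

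Lrp1 (ENSMUSG00000040249, chromosome 10, 127538161 to 127621148, minus strand, 92 coding parts) had the highest CPM of the 8 genes and, with Axl, the narrowest span. Per kilobase of coding length its control level was 239 ± 65.4 CPM per kb, which did not differ from Gas6 at 234 ± 18.8 by more than its SD, while Mertk stood at 18.0 ± 1.45. Its level was 2345, 4133 and 3320.2 CPM in the control, 1593, 2614 and 1945 CPM with IFNg and 3316, 3070.0 and 2608 CPM with hypoxia. The spread within groups was wide, and the control overlapped IFNg, although each IFNg library lay below the control library with the same replicate number. With TNF it was 1699, 1950.3 and 1696 CPM, with IL1b 1481, 2105 and 1766 CPM and with LPS 1388, 2021 and 1510.0 CPM, all overlapping IFNg. Lrp1 fell by 0.67 on the log2 scale (SE 0.20, adjusted p = 0.0176) with IFNg. This call was lost in 6 of 13 alternatives: without control replicate 2 (log2 fold change -0.46, adjusted p = 0.117), control replicate 3 (-0.66, adjusted p = 0.0565), IFNg replicate 1 (-0.52, adjusted p = 0.0972) or IFNg replicate 3 (-0.63, adjusted p = 0.0712), with no filter on low counts (adjusted p = 0.0581) and in the fit of the 2 groups alone (adjusted p = 0.0648). Hypoxia gave 0.55 (SE 0.20, adjusted p = 0.0506), next to the threshold. It passed in 5 alternatives: without IFNg replicate 2 (0.76, adjusted p = 0.0102) or hypoxia replicate 3 (0.64, adjusted p = 0.0487), with a minimum count of 50 (adjusted p = 0.0406), in the fit of the 2 groups (adjusted p = 0.019), and with the replicate number as a block (0.59, adjusted p = 0.0012). TNF gave -0.20 (SE 0.20, adjusted p = 0.44), and -0.52 (adjusted p = 0.0316) with RPKM totals. LPS gave -0.32 (SE 0.20, adjusted p = 0.3) and IL1b -0.20 (SE 0.20, adjusted p = 1).

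Cd300lf (ENSMUSG00000047798, chromosome 11, 115116214 to 115133992, minus strand, 7 coding parts) was 8.68, 10.6 and 8.29 CPM in the control and 70.0, 49.0 and 59.7 CPM with IFNg. With TNF it was 74.0, 58.5 and 61.4 CPM and with IL1b 75.4, 55.8 and 53.2 CPM. Every library that had IFNg lay above every control library, and the IFNg, TNF and IL1b libraries overlapped. With LPS it was 121, 77.9 and 80.1 CPM and with hypoxia 88.6, 71.7 and 92.2 CPM. The first LPS library was the highest of the 18. Cd300lf rose by 2.70 on the log2 scale (SE 0.20, adjusted p = 2.01e-11) with IFNg, in all 13 alternatives. The 7 dendritic cell genes summed to 5.32 to 5.99 CPM in the control and 90.4 to 95.1 with IFNg. Most of the IFNg sum was Clec9a, at 83.9 ± 2.84 CPM, against 0.245 ± 0.423 in the control. The dendritic sum was 46.9 to 61.8 CPM with TNF, 30.6 to 40.6 with LPS and 115.7 to 147 with hypoxia. The NK cell list, in which Klrk1 alone passed the filter, summed to 0 to 1.77 CPM in the control and 76.9 to 95.6 with IFNg. The part of both lists in the Cd300lf difference was not tested. With LPS, Cd300lf rose by 0.64 on the log2 scale (SE 0.18, adjusted p = 0.0114), a call that was lost without LPS replicate 1 (0.42, adjusted p = 0.124) or IFNg replicate 2 (0.52, adjusted p = 0.0846). With hypoxia it rose by 0.50 on the log2 scale (SE 0.18, adjusted p = 0.0449). That call was lost without IFNg replicate 2 (0.37, adjusted p = 0.205), IFNg replicate 3 (0.50, adjusted p = 0.101), hypoxia replicate 1 (0.46, adjusted p = 0.128) or hypoxia replicate 3 (0.43, adjusted p = 0.158), with upper-quartile scaling (0.42, adjusted p = 0.0941) and with RPKM totals (0.25, adjusted p = 0.334). LPS lay above TNF by 0.52 (SE 0.18, adjusted p = 0.0344), which was lost without LPS replicate 1 (0.31, adjusted p = 0.252), TNF replicate 2 (0.46, adjusted p = 0.12) or TNF replicate 3 (0.49, adjusted p = 0.101) and in the fit of the 2 groups (0.54, adjusted p = 0.0541). TNF gave 0.12 (SE 0.18, adjusted p = 0.637) and IL1b 0.05 (SE 0.18, adjusted p = 1).

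Among the other CD300 genes, 5 of the 9 tested fell with IFNg, where Cd300lf rose. IFNg against control gave 0 higher and 5 lower of 10 listed: Cd300lb and Cd300lg, with the largest changes, and Cd300a, Cd300c2 and Cd300ld, singled out after their values were seen. The remaining 4, named to complete the family (Cd300e, Cd300ld2, Cd300ld3 and Cd300ld4), did not pass the test. Cd300a, which also binds phosphatidylserine, went from 294 ± 46.9 to 143 ± 20.3 CPM and fell by 1.04 (SE 0.13, adjusted p = 4.93e-07). Cd300lb went from 160.2 ± 11.1 to 60.1 ± 8.14 CPM, and Cd300lg from 38.0 ± 4.6 to 12.9 ± 3.24 CPM. The family gave 0 higher and 4 lower with TNF, 0 higher and 3 lower with LPS, 0 higher and 3 lower (0 and 6 with RPKM totals) with hypoxia, 3 higher and 0 lower for LPS against TNF, and 0 calls with IL1b. With TNF, Cd300lb fell by 1.94 (SE 0.20, adjusted p = 1.03e-08). Of all genes tested, 13.5% were called higher and 10% lower with IFNg. The shares in the other comparisons are given with the counts of members above. The median of the 9 genes with IFNg was -1.04, against -0.015 over all genes tested. CD300 genes are related in sequence, and the handling of reads shared between them is not given in the sources used here. The values of single family members, Cd300lf included, are therefore uncertain.

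**Figure D4:**
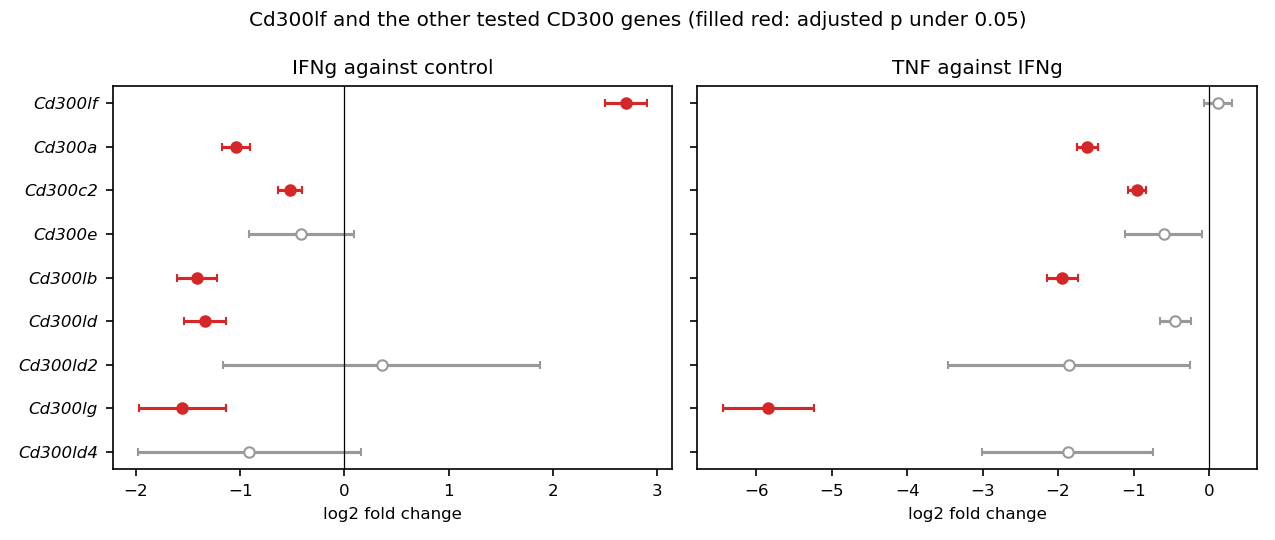
Log2 fold change (x axis) with bars of 1 SE of Cd300lf and 8 other CD300 genes (y axis) with IFNg against control (left) and with TNF against IFNg (right); filled red points passed an adjusted p of 0.05. Cd300ld3, at 0 with TNF, is left out. Cd300lf, at 2.70, is the filled point to the right of 0 in the IFNg panel, and the 5 other filled points there lie to the left.

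Genes that act with the 8 members were read from 11 lists, which were drawn up from general knowledge with earlier results of these data known. Some genes, such as Itgav and Cd300a, stand in 2 lists. Counts below are of list genes past an adjusted p of 0.05, and the counts with RPKM totals stand beside those whose split moved by over 10 percentage points or whose number moved by over 1.5 times. Of all genes tested, 13.5% were called higher and 10% lower with IFNg, 22.1% and 22.6% with TNF, and 10.2% and 10.1% with LPS. The shares were 13.5% and 11.8% with hypoxia, 12.2% and 13.1% for LPS against TNF, and 0.268% and 0.0346% with IL1b. Several list counts lie near or under these shares. No list was tested as a set, so the counts describe single genes and not the response of a pathway.

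TAM receptors are cut from the cell surface by the protease Adam17 and induce Socs proteins, which dampen cytokine signalling. Of 11 tested genes of this list, IFNg gave 4 higher and 2 lower, TNF 6 higher and 2 lower (4 and 3 with RPKM totals), LPS 4 higher and 0 lower (4 and 2 with RPKM totals), hypoxia 4 higher and 0 lower (2 and 0 with RPKM totals), LPS against TNF 0 higher and 4 lower (1 and 3 with RPKM totals) and IL1b 0 calls. Adam17, singled out after its values were seen, fell by 0.49 (SE 0.09, adjusted p = 0.000219) on the log2 scale with IFNg, where Mertk rose. It rose by 1.26 (SE 0.10, adjusted p = 2.34e-11) with TNF and rose by 0.56 (SE 0.09, adjusted p = 6.4e-05) with LPS, where Mertk also rose, and rose by 0.64 (SE 0.10, adjusted p = 1.07e-05) with hypoxia, where Mertk did not pass the test. Its level was 876 ± 20.8 CPM with TNF, against 367 ± 16.9 CPM for IFNg alone. Socs3 went from 10.2 ± 2.97 CPM with IFNg to 99.9 ± 12.3 with TNF and 29.3 ± 9.73 with LPS. Rhbdf2, a carrier protein of Adam17, rose by 1.43 (SE 0.13, adjusted p = 9.57e-10) with TNF. Socs1 had 1 count over the control libraries and 8.8 ± 5.47 CPM with IFNg, a ratio of 471 with a 95% counting interval of 84.1 to 18647.

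Gamma-carboxylation of Gas6 and protein S needs the vitamin K cycle. Of 4 tested genes, IFNg gave 0 higher and 1 lower, TNF 2 higher and 0 lower (2 and 1 with RPKM totals), LPS 2 higher and 0 lower, hypoxia 0 higher and 1 lower, LPS against TNF 0 higher and 0 lower (1 and 0 with RPKM totals), and IL1b 0 calls. The genes called in the TMM fit of 18 libraries were the quinone reductases Nqo1 and Aifm2. Nqo1 stood at 13.7 ± 3.69 CPM in the control, 2.31 ± 1.22 with IFNg and 28.4 ± 4.85 with TNF. The carboxylase Ggcx, singled out after its values were seen, was at 17.2 ± 1.7 CPM in the control, 10.9 ± 1.69 with IFNg, 7.83 ± 2.61 with TNF and 18.1 ± 3.47 with hypoxia. It did not pass the test in that fit in any of the 6 comparisons. With RPKM totals it passed for TNF (log2 fold change -0.80, adjusted p = 0.0405) and for LPS against TNF (0.92, adjusted p = 0.0301), and in the fit of the 2 groups for hypoxia (0.71, adjusted p = 0.0285).

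Among 11 partners of the integrin and of Lrp1, IFNg gave 2 higher and 4 lower, TNF 4 higher and 1 lower (4 and 4 with RPKM totals), LPS 1 higher and 0 lower (1 and 1 with RPKM totals), hypoxia 5 higher and 0 lower (4 and 1 with RPKM totals), LPS against TNF 1 higher and 5 lower (2 and 3 with RPKM totals) and IL1b 0 calls. Itgav, the alpha-v chain that pairs with Itgb5 and was singled out for that, stood at 119 ± 30.7 CPM in the control and 209.6 ± 31.7 with IFNg, and rose by 0.82 (SE 0.18, adjusted p = 0.00133) on the log2 scale where Itgb5 fell. With TNF Itgav was at 222 ± 22.6 CPM (log2 fold change 0.08, SE 0.18, adjusted p = 0.746), while Itgb5 fell. Itgb8, another beta chain of alpha-v, had 0 counts over the IFNg libraries and 36.2 ± 10.9 CPM with TNF, at least 631-fold higher. It was 2.01 ± 0.251 CPM with LPS, at least 34.0-fold higher, and 0.718 ± 0.364 CPM with hypoxia, at least 11.9-fold higher. These bounds set IFNg at 3 counts over the group. Furin, the protease that processes the Lrp1 precursor, rose by 1.10 (SE 0.11, adjusted p = 5.64e-09) with TNF, and Itgb1 rose by 0.71 (SE 0.11, adjusted p = 1.78e-05) with hypoxia.

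Other receptors for apoptotic cells (17 tested) gave 5 higher and 8 lower with IFNg, 6 higher and 6 lower with TNF, 5 higher and 3 lower (4 and 5 with RPKM totals) with LPS, 2 higher and 3 lower (1 and 5 with RPKM totals) with hypoxia, 5 higher and 4 lower (5 and 2 with RPKM totals) for LPS against TNF and 1 higher and 0 lower with IL1b (Cd36, a scavenger receptor). Their median with IFNg was -0.672, against -0.015 over all genes tested. Cd14, a receptor for LPS that also binds apoptotic cells, fell from 1171 ± 48.7 to 148 ± 4.89 CPM with IFNg and stood at 5321 ± 481 with TNF. Adgrb1, at 0 counts in the control, reached 2.76 ± 1.0 CPM after IFNg, which is at least 49.1-fold higher with the control set at 3 counts over the group. Stab2 had 0 counts with TNF and 0.93 ± 0.538 CPM with IFNg, at least 13.6-fold lower with TNF. The scavenger receptor Msr1 rose by 1.76 (SE 0.16, adjusted p = 3.58e-09) with LPS. Cd93 fell by 1.76 (SE 0.20, adjusted p = 4.2e-07) with hypoxia. Jmjd6, a listed gene that is not established as a receptor, rose by 1.93 (SE 0.23, adjusted p = 4.46e-07) with hypoxia.

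Other bridges and opsonins (13 tested) gave 6 higher and 4 lower with IFNg, 5 higher and 6 lower (3 and 6 with RPKM totals) with TNF, 4 higher and 4 lower with LPS, 6 higher and 2 lower (3 and 3 with RPKM totals) with hypoxia, 5 higher and 4 lower (7 and 3 with RPKM totals) for LPS against TNF and 0 higher and 1 lower (1 and 1 with RPKM totals) with IL1b. With IFNg, where Gas6 and Mfge8 fell, the complement genes C4b and C3 rose. C4b went from 1.26 ± 0.544 to 171 ± 10.7 CPM and C3 from 164 ± 33.1 to 1689 ± 319.7 CPM. With TNF, where Gas6 and Pros1 fell, Thbs1, a bridge to Cd36 and alpha-v integrins, went from 81.4 ± 9.29 to 2552 ± 544 CPM and rose by 4.97 (SE 0.16, adjusted p = 9.29e-19). Thbs1 stood at 713 ± 60.9 CPM with LPS and at 50.1 ± 4.25 with IL1b, where it fell by 0.70 (SE 0.14, adjusted p = 0.0187). Edil3, a phosphatidylserine bridge built like Mfge8, went from 1.03 ± 0.474 CPM with IFNg to 24.9 ± 5.08 with TNF and 8.11 ± 0.742 with hypoxia.

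Of 14 genes of find-me signals and lipid exposure, IFNg gave 4 higher and 3 lower, TNF 7 higher and 3 lower, LPS 6 higher and 2 lower, hypoxia 4 higher and 1 lower (2 and 3 with RPKM totals) and LPS against TNF 2 higher and 6 lower (3 and 3 with RPKM totals). With IFNg, the fractalkine receptor gene Cx3cr1 fell from 191 ± 31.5 to 5.46 ± 2.74 CPM, and S1pr1 from 89.3 ± 11.4 to 2.33 ± 1.13 CPM. Gpr132, a lysophospholipid-responsive receptor, rose from 25.3 ± 1.76 to 297 ± 44.9 CPM with TNF. Of 19 genes of the engulfment machinery, IFNg gave 1 higher and 1 lower (1 and 2 with RPKM totals), TNF 5 higher and 9 lower (2 and 9 with RPKM totals), LPS 1 higher and 4 lower (1 and 6 with RPKM totals), hypoxia 5 higher and 2 lower (1 and 5 with RPKM totals) and LPS against TNF 6 higher and 4 lower (7 and 1 with RPKM totals). Bcar1, an adaptor of integrin signalling, stood at 0.122 ± 0.211 CPM with IFNg, 26.7 ± 4.91 with TNF and 16.3 ± 2.34 with hypoxia. The IFNg value of Bcar1 rests on 7 counts over the group and lies under the level of 3 counts in a library, so the size of its rise is uncertain. Arhgef6, an exchange factor for Rac, fell from 319 ± 15.8 to 40.3 ± 3.85 CPM with TNF. Neither list had a call with IL1b.

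Of 9 genes of signals that block uptake, IFNg gave 3 higher and 2 lower, TNF 1 higher and 3 lower, LPS 1 higher and 4 lower (0 and 4 with RPKM totals), hypoxia 1 higher and 2 lower (0 and 3 with RPKM totals) and LPS against TNF 2 higher and 1 lower (2 and 0 with RPKM totals). Pecam1 went from 0.547 ± 0.482 CPM to 24.1 ± 3.36 with IFNg and to 4.34 ± 0.921 with TNF. Of 17 genes of corpse digestion, IFNg gave 2 higher and 2 lower (2 and 4 with RPKM totals), TNF 5 higher and 4 lower (2 and 8 with RPKM totals), LPS 4 higher and 2 lower, hypoxia 4 higher and 5 lower (1 and 6 with RPKM totals) and LPS against TNF 3 higher and 3 lower (7 and 2 with RPKM totals). Cybb, the catalytic subunit of the phagocyte oxidase, rose by 1.55 (SE 0.13, adjusted p = 1.12e-10) with TNF, and the lysosomal nuclease Dnase2a fell by 1.21 (SE 0.12, adjusted p = 3.95e-09). Of 14 genes of the lipid response to engulfed cells, IFNg gave 5 higher and 1 lower (3 and 3 with RPKM totals), TNF 5 higher and 6 lower, LPS 2 higher and 4 lower, hypoxia 3 higher and 1 lower (1 and 3 with RPKM totals), LPS against TNF 5 higher and 5 lower and IL1b 1 higher and 0 lower (Nr1h3). Nr1h3, which encodes the oxysterol receptor LXR-alpha, was highest with TNF, at 75.8 ± 4.58 CPM. It was at 12.8 ± 1.47 CPM with IFNg, 23.3 ± 2.47 with IL1b, 45.3 ± 6.16 with LPS and 6.04 ± 0.839 with hypoxia. Pparg fell from 72.7 ± 15.8 to 7.38 ± 4.57 CPM with TNF.

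The pattern of each member over the 18 libraries was compared with that of 11542 other tested genes by Pearson's r of log2 CPM, as a description in which the libraries share groups. The genes most like Mertk were Procr (r = 0.988) and Tnfaip2 (0.985). Those most like Itgb5 were Selenop (0.989) and Il6ra (0.989). Gas6 was nearest to Ckap2 and Alox5 (both 0.968), and Pros1 to Iqgap3 (0.972) and Slc30a5 (0.97). Mfge8 was nearest to F13a1 (0.935) and Col18a1 (0.934), and Cd300lf to Gm4841 and Pacsin1 (both 0.973). Axl (Map2, 0.921, and Slfn9, 0.911) and Lrp1 (Tgfbr1, 0.924, and Ahnak, 0.916) had the least close neighbours of the 8. Among the members themselves, Mertk and Itgb5 ran opposite to each other (r = -0.98), as did Mertk and Pros1 (-0.89). Pros1 and Itgb5 (0.84), Gas6 and Pros1 (0.82) and Mfge8 and Lrp1 (0.81) ran together, while Axl and Gas6 had r = -0.04.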

How the data were processed

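Per the labels' protocols, poly(A) RNA libraries were prepared with a strand-specific kit, with 100 ng RNA as input, and sequenced as 50 bp single-end reads. GSNAP and mm10 are named in the submitters' processing notes. Which counter and annotation the authors used, and whether counting used strand, is not given in the sources used here. Each deposited file gives the authors' read count, width and RPKM per gene. The deposited RPKM values were used for the library totals they imply (22728833 to 39859629 reads) and to recompute the ratios of Axl to Mertk and of Gas6 to Pros1. The members' widths were close to the union of their coding exons in GENCODE M21, which also gave symbols (22457 of 22598 identifiers) and mm10 positions.

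Counts were tested with edgeR 4.0.16 in R 4.3.3 (TMM, default filterByExpr, robust glmQLFit, glmQLFTest) in 1 fit of 18 libraries with a mean per group. Tested were 11563 genes, with Benjamini-Hochberg adjustment within each of 6 comparisons. SE is the absolute log2 fold change divided by the square root of F. The fit was also run on simulated counts in which 200 genes changed in the IFNg group alone. That simulation held no replicate effect and fewer changed genes than the 2727 called with IFNg, and no result here rests on it. Groups and replicate numbers came from sample titles. Alternatives were DESeq2 1.42.0, other scalings and filters, fits of 2 groups, a replicate block and leaving out each library. The stricter filter used a minimum count of 50. Intervals and floors cover counting error only.

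The members, the 11 pathway lists and the 11 marker lists were chosen with earlier results of these data known. Named were all 8 members, at most 2 called genes with the largest change per list and comparison, and the 2 genes most correlated with each member; others are said to be singled out. A few list genes are not reported here by name.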

Additional observations from a re-analysis of the deposited data

How the results depend on the processing

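Of 624 recomputed log2 fold changes of the members, 574 kept their direction and side of the threshold, 18 lost a call, 10 gained one and 22 changed sign; none of the 22 was called. The calls that changed are given with Lrp1, Cd300lf, Axl, Pros1 and Itgb5 above. Signs that changed with RPKM totals were those of Pros1 with IFNg (-0.0906), Mfge8 (-0.15) and Cd300lf (-0.20) with TNF, Mertk (-0.19) and Itgb5 (-0.0030) with hypoxia, and Mfge8 (0.0416) and Lrp1 (0.12) for LPS against TNF. With upper-quartile scaling they were Cd300lf with TNF (-0.0060), Mertk with hypoxia (-0.019) and Lrp1 for LPS against TNF (0.0017). Leaving out 1 library gave ranges through 0 for Pros1 with IFNg (-0.0612 to 0.222), Lrp1 (-0.356 to 0.0101) and Cd300lf (-0.0061 to 0.25) with TNF, Axl (-0.100 to 0.0694), Lrp1 (-0.353 to 0.0135) and Cd300lf (-0.13 to 0.18) with IL1b, Mfge8 with LPS (-0.183 to 0.0914) and Lrp1 for LPS against TNF (-0.30 to 0.0073).

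The count of genes called with IL1b was 35, and 84 with DESeq2, 68 in the fit of the 2 groups and 15 to 35 with 1 library left out (15 without IFNg replicate 1 or IL1b replicate 3, 21 without IFNg replicate 2, 23 without IL1b replicate 2); members called there were 0, 1 with DESeq2 and 2 in the fit of the 2 groups, and the cause was not tested. Counts for the other 5 comparisons stayed within 1.5 times under every alternative run. Of 462 list counts recomputed in settings added after seeing the data, 441 were within 1.5 times. Those that were not included CD300 genes with hypoxia (3, against 6 with RPKM totals and 5 with upper-quartile scaling or in the fit of the 2 groups), integrin and Lrp1 partners with TNF (5, and 8 with RPKM totals) and with LPS (1, 2 with RPKM totals or DESeq2 and 3 with the block), TAM shedding and signal genes with hypoxia (4, and 2 with RPKM totals), and, in the fit of the 2 groups, engulfment genes for LPS against TNF (10, and 6) and genes that block uptake with LPS (5, and 3) and for LPS against TNF (3, and 1). Vitamin K genes went from 0 to 1 for LPS against TNF (RPKM totals or the 2 groups) and from 1 to 2 with hypoxia (the 2 groups), and 3 lists with IL1b from 1 to 2.

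With the replicate block, members called were 7 with IFNg, 5 with TNF, 0 with IL1b, 6 with LPS, 6 with hypoxia and 5 for LPS against TNF, and genes called 2917, 5340, 48, 2515, 3112 and 3112. Without the block, genes called were 2727, 5174, 35, 2348, 2918 and 2926, fewer in each comparison. Among members the block changed the call of Lrp1 with hypoxia alone. In the edgeR test the adjusted p of Lrp1 with hypoxia was 0.0506 without the block and 0.0012 with it. The labels do not say what the number marks, and libraries were not treated as paired in the main fit. Correlations of the deviations of same-numbered libraries ran from -0.0971 to 0.322. In no comparison did all exceed 0.1, but IFNg against control missed that level only through replicate 3, at 0.0954. Each library correlated best with its own number for IFNg, LPS and hypoxia. For TNF, IL1b and LPS against TNF this held for replicate 1 alone. These correlations do not settle whether the libraries are paired, and the call of Lrp1 with hypoxia depends on it.

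The members had 119 or more counts in each library, and 3 libraries a group limit the precision. Scaling to RPKM totals shifted the all-gene median by as much as -0.32 on the log2 scale (TNF), which bears on members with small differences. Coding-part counts leave out untranslated regions, and transcript levels do not show surface protein or shedding.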
